A study of Mus musculus with 2 samples.

Results

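The genes with the symbols Zfp600 to Zfp999 are mouse genes for zinc finger proteins that carry serial numbers in place of descriptive names. They were chosen by symbol alone, as all genes of GENCODE release M21 whose symbol is Zfp followed by a number from 600 to 999, and 162 of the 24223 genes in the count tables met this rule. Of these, 160 were annotated as protein-coding and 2 as pseudogenes, and they lay on 18 chromosomes, with 35 on chromosome 7, 22 on chromosome 17, 18 on chromosome 4, 15 on chromosome 8 and 14 on chromosome 2. RNA came from CT26 cells, a line grown from a BALB/c mouse colon tumor, and was sequenced as 1 library per group. The DAC group received decitabine (DAC, a cytosine analog that inhibits DNA methyltransferases) at 1 μM in 3 doses, 24 h apart, over 3 days, and was collected 24 h after a change to drug-free medium. The control group was handled in parallel without DAC. With 1 library per group, no difference below has a replicate check and no p-value is given.

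Most proteins of this kind bind DNA through a row of C2H2 zinc fingers, each of which contacts a few bases. Many also carry a KRAB box at the amino end, which recruits the corepressor TRIM28 and through it the histone H3K9 methyltransferase SETDB1, and such proteins are best known for silencing endogenous retroviruses and other repeats in embryonic cells. Their genes arose by repeated duplication, stand in clusters along the chromosomes, and are often near-copies of their neighbours. DNA and H3K9 methylation lie over many of these repeats and over some of the zinc finger genes themselves, so a library made after inhibition of DNA methyltransferases asks whether the transcripts of the repressor genes changed, and whether neighbours in a cluster changed together.

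Counts were scaled with TMM factors to CPM (counts per 1000000 of the scaled library), and a gene was measured when it reached 1 CPM in one of the libraries. The call of higher or lower needed a DAC to control CPM ratio of 2 or more, or of 0.5 or less, with an exact 95% counting interval (in parentheses below) that left out 1. The interval covers counting error only. The library totals were 35163420 counts for DAC and 34221886 for control, and after TMM scaling 1 CPM equalled 37.6 and 32.0 counts. Of the 162 genes, 145 were measured, 6 were called higher, 5 were called lower and 134 were called neither way. Among all 13545 genes measured, 10.8% were called higher and 5.29% lower (16.1% in all), against 7.59% of the numbered zinc finger genes. The called genes are thus a smaller share here than in the table as a whole, and a smaller share than the 13.8% of the 9027 genes between 1.66 and 79.7 mean CPM, the 5th to the 95th percentile of these genes. The split of 6 higher and 5 lower became 14 and 3 with library totals in place of TMM, which raises every log2 ratio by 0.19, and 11 and 2 after log2 ratios were centred on genes of like GC content. Over all genes the split of 1468 higher and 716 lower became 1889 and 458 with library totals, and 1391 and 600 after GC centring. With library totals 11.8% of the numbered genes and 17.3% of all genes were called, and after GC centring 8.97% and 14.7%.

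The promoters of 137 of the 162 genes were in the RefSeq promoter table (GRCm38.p6, 250 bases before to 50 after the start of transcription). CG is the dinucleotide that DNA methyltransferases modify, so it is written in capitals in 4 of these promoters, read 5′ to 3′. Zfp940 had the highest ratio of the measured genes, Zfp790 is its neighbour on the opposite strand, Zfp764 was called higher and Zfp945 was called lower. The positions are chr7:29853599-29853898, minus strand, for Zfp940, chr7:29815822-29816121, plus strand, for Zfp790, chr7:127406773-127407072, minus strand, for Zfp764, and chr17:22867085-22867384, minus strand, for Zfp945.
Zfp940 promoter: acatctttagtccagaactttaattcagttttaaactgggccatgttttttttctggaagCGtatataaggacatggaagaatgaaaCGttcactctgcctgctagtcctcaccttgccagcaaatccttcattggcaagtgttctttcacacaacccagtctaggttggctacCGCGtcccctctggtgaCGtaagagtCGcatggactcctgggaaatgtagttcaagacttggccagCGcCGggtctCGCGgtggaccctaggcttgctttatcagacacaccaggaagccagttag
Zfp790 promoter: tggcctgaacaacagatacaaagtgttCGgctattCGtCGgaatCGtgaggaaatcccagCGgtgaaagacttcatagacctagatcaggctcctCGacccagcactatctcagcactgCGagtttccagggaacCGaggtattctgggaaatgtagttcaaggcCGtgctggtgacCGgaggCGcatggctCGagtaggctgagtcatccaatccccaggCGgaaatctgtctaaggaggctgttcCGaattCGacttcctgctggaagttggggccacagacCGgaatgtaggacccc
Zfp764 promoter: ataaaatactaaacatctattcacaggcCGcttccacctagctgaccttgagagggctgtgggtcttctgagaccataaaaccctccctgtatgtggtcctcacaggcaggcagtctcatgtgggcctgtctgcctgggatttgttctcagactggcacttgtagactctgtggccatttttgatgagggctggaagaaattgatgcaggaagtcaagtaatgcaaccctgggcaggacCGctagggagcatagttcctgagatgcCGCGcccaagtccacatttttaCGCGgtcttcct
Zfp945 promoter: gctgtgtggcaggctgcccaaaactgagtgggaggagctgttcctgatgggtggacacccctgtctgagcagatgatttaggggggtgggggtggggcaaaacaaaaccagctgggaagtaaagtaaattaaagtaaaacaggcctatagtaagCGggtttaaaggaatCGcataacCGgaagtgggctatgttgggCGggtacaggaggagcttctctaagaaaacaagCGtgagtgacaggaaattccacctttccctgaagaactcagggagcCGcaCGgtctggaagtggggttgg
These windows hold 10, 16, 6 and 7 CGs. The promoters of all 13122 genes in the table that matched the counts had a median of 18. Methylation of these promoters was not analysed here.

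Zfp940 was the only one of the measured genes past 4-fold. This KRAB gene with 10 zinc fingers lies on chromosome 7 from 29833620 to 29853669 (minus strand, GRCm38). It had 16 counts in the control library and 142 in the DAC library, or 3.78 CPM, a ratio of 7.56 (4.50 to 13.6). It was a low transcript in the control, and even after DAC it stayed under the median of 13.8 CPM of the measured numbered genes. Its neighbour Zfp790, a KRAB gene whose annotated span ends 2615 bases before that of Zfp940 begins, had 797 and 928 counts, a ratio of 0.992 (0.902 to 1.09). On the other side Zfp420, 6310 bases away, had 340 and 265 counts, or 0.664 (0.564 to 0.782). The next genes out, Zfp30 at 1.74 (1.46 to 2.08) and Zfp27 at 0.996 (0.872 to 1.14), were not called either, so none of its 4 measured neighbours passed the rule.

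The other 5 genes called higher had ratios between 2.10 and 2.72. Zfp846, a KRAB gene with 15 fingers on chromosome 9 (20581291 to 20605409, plus strand), had 87 counts in the control and 278 after DAC, which gave 2.72 (2.13 to 3.51). Zfp764, a KRAB gene on chromosome 7 (127403668 to 127406822, minus strand), had 185 and 579 counts and a ratio of 2.67 (2.26 to 3.16). It shares 27.6% of the 50-base stretches of its longest transcript with other genes, chiefly 9130019O22Rik, so some of its counts may belong to copies. Zfp667, a KRAB gene on chromosome 7 (6286579 to 6307883, plus strand), rested on 13 and 40 counts and had the widest interval of the called genes on a log scale, 2.62 (1.37 to 5.34). Zfp882, on chromosome 8 (71908608 to 71916354, plus strand), had 100 and 267 counts, or 2.28 (1.802 to 2.89), and 2.91% of its exon bases lie in exons of Zfp617 on the same strand. Zfp775, on chromosome 6 (48602063 to 48623227, plus strand), was the only gene among them in which no KRAB box was found and had 73 and 180 counts, 2.10 (1.59 to 2.80). Exons of other genes cover 12.3% of its exon bases on the opposite strand and 3.20% on its own, and the counting is not stated to use strand. After GC centring the log2 ratio of Zfp775 was 0.81, under the rule, and the other 5 stayed past it.

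The 5 genes called lower had 2.81 to 18.5 CPM per kilobase of transcript in the control, against 0.110 to 2.30 for those called higher. The control level is part of the ratio behind each call. A gene low in the control can also reach the CPM minimum through the DAC library alone, as Zfp940 and Zfp667 did. The direction of this difference is thus partly set by the rule. Zfp608, a large protein of 1511 residues in which 1 C2H2 finger and no KRAB box were found, and which is known in mouse thymocytes for lowering expression of the Rag genes, had 3615 counts in the control and 1674 after DAC, which gave 0.395 (0.372 to 0.418). It lies on chromosome 18 from 54888048 to 54992555 (minus strand), and Gm4221 within that span had 64 and 7 counts, a ratio of 0.0932 (0.0360 to 0.203). Zfp945, a KRAB gene with 18 fingers on chromosome 17 (22846697 to 22867134, minus strand), had 1625 and 776 counts, 0.407 (0.373 to 0.444). Zfp941, a KRAB gene on chromosome 7 (140807449 to 140822178, minus strand), had 346 and 175 counts, 0.431 (0.357 to 0.518). Zfp871, a KRAB gene on chromosome 17 (32765496 to 32788287, minus strand), had 2732 and 1563 counts, 0.488 (0.458 to 0.519). Zfp965, a KRAB gene on chromosome 2 (175469985 to 175482171, plus strand), had 217 and 125 counts, 0.491 (0.391 to 0.615), and all of its 50-base stretches occur in other genes, chiefly Zfp973, so its counts cannot be assigned to it alone. Zfp871 and Zfp965 fell short of the rule with library totals (log2 ratios of -0.84 and -0.83), and these 2 with Zfp945 fell short after GC centring (-0.74, -0.66 and -0.93), which leaves Zfp608 and Zfp941 lower under both.

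**Figure D1:**
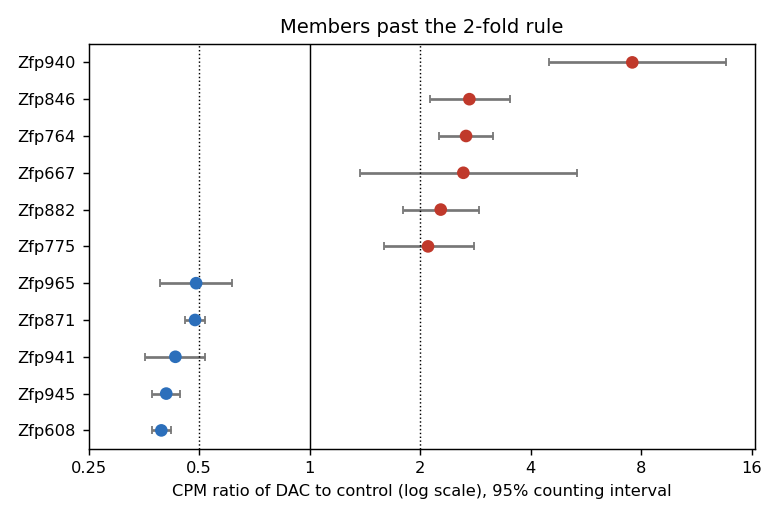
DAC to control CPM ratio (x axis, log scale) of the 11 numbered zinc finger genes past the 2-fold rule, with bars for the exact 95% counting interval, a solid line at 1 and dotted lines at 0.5 and 2. The bars of Zfp940, Zfp846 and Zfp764 lie wholly above 2 and those of Zfp945 and Zfp608 wholly below 0.5, while the bar of Zfp667 is the widest on this log axis.

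A further 7 genes came within 10% of the 2-fold threshold from below, without passing it, and 9 came as near to the lower threshold. Zfp628 had 371 and 862 counts, or 1.98 (1.75 to 2.24), just inside the threshold, and Zfp788, a KRAB gene with 23 fingers, had 269 and 611 counts, 1.94 (1.67 to 2.24). Zfp710 had 408 and 912 counts, 1.90 (1.69 to 2.15). On the lower side, Zfp950 had 1185 and 696 counts, 0.501 (0.455 to 0.550), and Zfp961 had 341 and 205 counts, 0.512 (0.429 to 0.611). The intervals of these 5 genes overlap those of the called genes nearest the thresholds, Zfp775 and Zfp965, so the number called depends on where the threshold stands.

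As a group, the numbered genes were close to the rest of the table. The median log2 ratio was -0.15, with the middle of the distribution from -0.50 to 0.25, against -0.02 for all genes measured, and 104 of 145 (71.7%) lay within 1.5-fold of equal CPM against 65.1% of all genes. The median turned to 0.045 with library totals, which put the median of all genes at 0.18, and to 0.066 after GC centring, so its sign is a matter of scaling. The counting interval lay above 1 for 39 genes, below 1 for 66 and held 1 for 40. These counts depend on depth and scaling and were not set beside those of all genes. Summed over the 162 genes, the level was 3538 CPM in the control and 2992 CPM in the DAC library, a ratio of 0.846 (0.839 to 0.853) that became 0.966 with library totals. Across the 145 measured genes, log2 CPM in control and DAC had a Pearson r of 0.94 and a Spearman rho of 0.95, which describes how the order of levels was held between these libraries. The RNA is from whole cultures, so fewer cells with a transcript and less transcript per cell cannot be told apart.

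The most abundant of the numbered genes were not called in either direction. By CPM per kilobase of the longest transcript, the highest in the control were Zfp948 at 45.0, Zfp655 at 37.9, Zfp706 at 36.6, Zfp740 at 32.5 and Zfp622 at 32.4, and in the DAC library they stood at 24.0, 21.4, 27.4, 43.0 and 21.9. Zfp740 thus headed the order after DAC and Zfp948 headed it before. Zfp740 had 4418 counts before and 6855 after DAC, which gave 1.32 (1.27 to 1.37). Zfp706, a small protein that restrains self-renewal in mouse embryonic stem cells, had 5183 and 4547 counts, 0.748 (0.718 to 0.778). Zfp655, which binds the signalling protein VAV1, had 5051 and 3341 counts, 0.564 (0.539 to 0.589). Zfp622, whose human homolog acts in maturation of the large ribosomal subunit, had 4652 and 3697 counts, 0.677 (0.648 to 0.707), and Zfp664 had 3713 and 3753 counts, 0.861 (0.823 to 0.902). These counts are large enough that all 5 intervals exclude 1, and all 5 ratios stay inside 2-fold.

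None of the 13 measured genes from a list chosen for known roles was called, beside 7.59% of the numbered genes and 16.1% of all genes. The 13 include Zfp568, whose number lies outside the range. With so few genes, a count of 0 cannot be told apart from these shares. Zfp809, a KRAB protein that recognises the tRNA primer binding site of murine leukemia viruses and silences them through TRIM28, had 967 control and 1381 DAC counts, 1.22 (1.12 to 1.32). Zfp932, a KRAB protein that binds endogenous retroviral elements in embryonic stem cells, had 662 and 518 counts, 0.667 (0.593 to 0.749), with 45.2% of its 50-base stretches shared with other genes. Among genes tied to other repressors, Zfp638, which brings the HUSH silencing complex to unintegrated retroviral DNA in human cells, had 1326 and 1134 counts, 0.729 (0.673 to 0.790). Zfp644, a partner of the H3K9 methyltransferases G9a and GLP, had 1072 and 1136 counts, 0.903 (0.830 to 0.983), and Zfp652, whose human homolog works with the corepressor CBFA2T3, had 844 and 1074 counts, 1.08 (0.990 to 1.19). The ratios of these 5 genes run from 0.667 to 1.22, and that of Zfp961, also on the list and given above, was 0.512. The log2 ratio of Zfp644 changed sign with library totals and after GC centring.

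Others on the list have roles outside retroviral silencing. Zfp703, a corepressor amplified in human luminal breast cancer, had 1052 and 1678 counts, a ratio of 1.36 (1.26 to 1.47), the highest of the measured genes named for a known role. Zfp746, also called PARIS, represses the gene for the coactivator PGC-1α and had 2138 and 1905 counts, 0.759 (0.713 to 0.808). Zfp827, whose human homolog recruits the NuRD complex to telomeres, had 2241 and 1779 counts, 0.677 (0.635 to 0.720). For Zfp687 and Zfp830 the intervals held 1, with 803 and 1025 counts (1.09, 0.991 to 1.19) and 658 and 719 counts (0.931, 0.837 to 1.04). Zfp750, a regulator of epidermal differentiation, had 5 and 12 counts and was not measured.

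No numbered gene went from under 0.1 CPM in the control to 1 CPM or more after DAC, which 189 genes (0.780%) of the whole table did, so a count of 0 among 162 genes is near the background. The 17 genes under the CPM minimum summed to 54 control and 149 DAC counts. The CPM was greater in the DAC library for 13 of them, and the interval lay above 1 for 5 (29.4%) and below 1 for 0. Among all 10678 genes with a count under the minimum, 58.3% had more CPM after DAC, 13.9% had the interval above 1, and 662 genes had it below 1. Zfp811, a KRAB gene on chromosome 17, had 0 and 16 counts, a ratio of 4.55 with the control count taken as 3 (interval from 3.29). Zfp977 had 7 and 28 counts, 3.41 (1.45 to 9.24), Zfp784 had 1 and 10, 8.52 (1.21 to 369.8), and Zfp677 and Zfp957 each had 0 and 6. These are the genes with the fewest counts, all below 1 CPM after DAC. Exons of 4632433K11Rik and Zfp865 cover 94.8% of the exon bases of Zfp784 on the opposite strand. Its counts may belong to them if counting did not use strand.

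Neighbouring genes were compared next. With a cluster set as 3 or more numbered genes no more than 1 Mb apart, 108 of the 162 genes fell in 17 clusters, and 99 of them were measured. Of these, 4 were called higher and 3 lower, and among the 46 measured genes outside clusters 2 were called in each direction. The 7 called genes in clusters stood in 7 different clusters, 10 clusters had none, and no cluster had 2 or more. With library totals 11 called genes stood in 9 clusters, and 2 of these held a pair called higher, Zfp747 with Zfp764 on chromosome 7 and Zfp775 with Zfp786 on chromosome 6. Without the filter on low values 1 cluster held a pair, Zfp811 called higher and Zfp871 called lower. Medians were -0.12 in clusters and -0.17 outside, and the shares within 1.5-fold were 71.7% for both. Genes of a cluster share sequence and are not replicates of one another.

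Counts summed over the numbered genes of a cluster do not depend on how reads were split among those genes, though reads shared with other genes still bear on them, and none of the 17 sums passed the 2-fold rule. The interval lay below 1 for 10 clusters, above 1 for 2 and held 1 for 5. DESeq2 size factors and upper-quartile factors also gave 10 below and 2 above. With library totals these became 4 below, 7 above and 6 that held 1, so the side of several clusters depended on scaling. The median log2 ratio of a cluster is another measure than its sum. Before centring the 2 could already differ in side, as on chromosome 7 from 41633203 (median 0.10, ratio of sums 0.855). After GC centring the median was above 0 in 10 clusters and below 0 in 7. Those on chromosome 9 and at the far end of chromosome 7 lay above under each of these, and those on chromosome 2, chromosome 10 and from 32765496 on chromosome 17 lay below. The sum rose most in the cluster on chromosome 7 from 127244274 to 127885996, with 4805 control and 6987 DAC counts, 1.24 (1.19 to 1.29), and 8 of its 9 measured genes had a ratio above 1, from Zfp768 at 1.01 (0.914 to 1.11) to Zfp764 at 2.67. Zfp747 in this cluster had 398 and 831 counts, 1.78 (1.58 to 2.01), and Zfp688 was the exception with 242 and 191 counts, 0.673 (0.553 to 0.816). The cluster on chromosome 9 from 22055411 to 22307648, with Zfp653, Zfp809 and Zfp810, had 1340 and 1906 counts, 1.21 (1.13 to 1.301), while Zfp810 itself had 117 and 79, 0.575 (0.427 to 0.772).

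The lowest sum was that of the cluster on chromosome 17 from 32765496 to 33033402, with 4116 and 3039 counts, 0.629 (0.600 to 0.660), which became 0.719 (0.685 to 0.753) with library totals. Zfp871 held most of these counts. Within the same cluster Zfp870 had 282 and 447 counts, 1.35 (1.16 to 1.57), and Zfp952 had 643 and 559, 0.741 (0.660 to 0.831), so its genes moved in both directions. The larger cluster on chromosome 17 from 21383748 to 22867134 had 14 genes, 12 of them measured, and 12289 and 10466 counts in sum, 0.726 (0.707 to 0.745), while its median log2 ratio turned from -0.17 to 0.19 after GC centring. It held both Zfp945 and Zfp948, with 3819 and 2394 counts, 0.534 (0.507 to 0.562), and also Zfp820, with 584 and 1085 counts, 1.58 (1.43 to 1.75). On chromosome 10 from 81901911 to 82241280, Zfp938 had 622 and 401 counts, 0.549 (0.483 to 0.624), beside Zfp873 with 55 and 120, 1.86 (1.34 to 2.61), and the sum was 0.653 (0.583 to 0.731).

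Copies were closest in the clusters on chromosomes 2 and 4. On chromosome 2 from 174643534 to 178078476, 11 genes shared up to 100% of their 50-base stretches, and the sum of 1775 and 1476 counts gave 0.709 (0.661 to 0.760). Zfp965 was called there, and its near-copy Zfp973 had 274 and 164 counts, 0.510 (0.418 to 0.621). Zfp931 at the far end had 35 and 68 counts, 1.66 (1.09 to 2.57). On chromosome 4 from 145510759 to 147848366, the cluster with the most genes, all 17 were measured and none was called. Their sum of 10776 and 11099 counts gave 0.878 (0.855 to 0.901), or 1.00 (0.976 to 1.03) with library totals. Zfp980, with 59 and 132 counts, stood highest at 1.91 (1.39 to 2.64) and Zfp982, with 420 and 259, lowest at 0.526 (0.448 to 0.615). Zfp979, Zfp985 and Zfp984 held most of the counts in that cluster and had ratios of 0.948, 0.749 and 0.865.

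**Figure D2:**
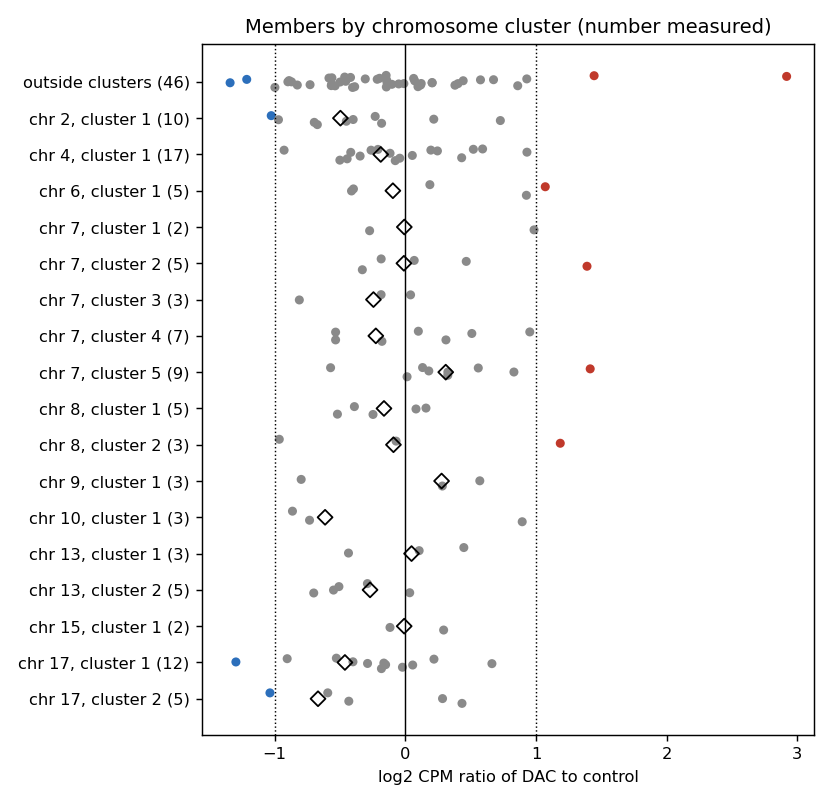
Log2 DAC to control CPM ratio (x axis) of each measured numbered gene, by chromosome cluster (y axis, with the number measured), in gray for neither call, red for higher and blue for lower, with diamonds for the ratio of the summed counts and dotted lines at a 2-fold difference. Red or blue points appear at most once in a cluster, and the diamonds lie between the dotted lines in all 17 clusters.

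Other genes lie between the numbered ones in these spans. Of 182 measured, 16 were higher and 9 lower (13.7%), beside 7.07% of the numbered genes in clusters and 16.1% of all genes. In the cluster on chromosome 13 from 67038596 to 67687071, no numbered gene was called, while the KRAB genes between them went both ways, with Zfp458 at 214 and 117 counts (0.466, 0.369 to 0.586), Zfp429 at 70 and 174 counts (2.12, 1.60 to 2.84) and Rsl1, a KRAB repressor of male-specific liver genes, at 17 and 52 counts (2.61, 1.48 to 4.81). On chromosome 2, Gm14401 had 52 and 19 counts, 0.311 (0.174 to 0.536), and Gm14443 had 42 and 18, 0.365 (0.198 to 0.648), both lower as Zfp965 was. On chromosome 7, Zfp579 beside Zfp628 had 386 and 1211 counts, 2.67 (2.38 to 3.01), and Gm49388 in the span of the Zfp764 cluster had 337 and 8, 0.0202 (0.00866 to 0.0403). The cluster on chromosome 15 from 75940952 to 76925448 had no called numbered gene, but Slc39a4, a zinc importer, had 5 and 124 counts, 21.1 (8.82 to 66.2). Foxh1 there, a transcription factor of the nodal pathway, had 0 and 50, a ratio of 14.2 with the control count taken as 3 (interval from 11.1). Over the 44 measured genes that flank the 11 called ones, 4 were higher and 1 lower, with a median log2 ratio of -0.03. Of all genes measured, 10.8% were higher and 5.29% lower. Some of the flanking genes are numbered genes themselves, such as Zfp790 and Zfp688.

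A KRAB box was found in the translated coding sequence of 109 of the genes and was not found in 51 others, and 2 genes had no coding sequence. The box was sought by a sequence pattern, which can miss one, so the 51 may include genes that carry it. Zfp947 and Zfp995, which share sequence and code for 437 residues each, fell in different classes. Among 100 measured genes with a KRAB box, 5 were higher and 4 lower, the median log2 ratio was -0.18 and 66.0% lay within 1.5-fold of equal CPM. Among 44 without one, 1 was higher and 1 lower, the median was -0.02 and 86.4% lay within 1.5-fold. The classes also differed in base composition, with a median transcript GC of 39.7% and 50.9%, and their medians were 0.10 and -0.02 after GC centring, so the lower median of KRAB genes turned. Split by transcript GC into 49 low, 48 middle and 48 high genes, the medians were -0.29, -0.25 and 0.12. Pearson r of GC and log2 ratio was 0.29 and Spearman rho was 0.27 over the 145 genes, against 0.23 and 0.33 over all genes, and genes within a library are not independent points. The genes coded for 0 to 33 fingers, and the number of fingers had r of 0.07 with the log2 ratio. Of the genes with 13 or more fingers 3 were higher and 2 lower of 48 measured. With 8 to 12 fingers 3 were higher and 1 lower of 59, and with up to 7 fingers 0 were higher and 2 lower of 37. Over all 145 measured numbered genes 6 were higher and 5 lower (7.59%). Of all genes measured, 10.8% were higher and 5.29% lower (16.1% in all). The calls in each KRAB or finger class are too few to tell the classes apart.

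**Figure D3:**
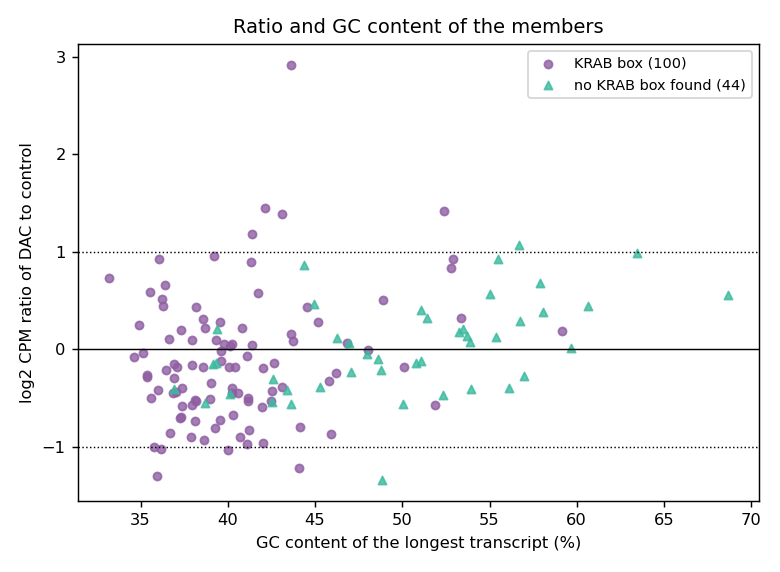
Log2 DAC to control CPM ratio (y axis) against GC content of the longest transcript in percent (x axis) for the measured numbered genes, as circles for 100 genes with a KRAB box and triangles for 44 without one found, with dotted lines at a 2-fold difference. Circles lie mostly at lower GC (median 39.7%) and triangles at higher GC (median 50.9%), and points at the GC-rich end sit somewhat higher.

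The promoters of the numbered genes held few CGs. The median was 10 per 300-base window over 137 genes, against 18 over all 13122 genes and 21 over those measured, and every one held at least 1, as did 98.6% of all. Some RefSeq windows lie far from the GENCODE start of their gene, such as 98112 bases for Zfp993 and 91699 for Zfp935, and no limit was set. For the called genes this distance was 56 bases or less. With a KRAB box the median was 9, and without one found it was 20. The promoters of the 6 genes called higher had a median of 10, those of 4 called lower had 6 and those of 115 called neither way had 11, so the higher genes did not stand apart from the others in this count. Among the called genes the number ran from 5 for Zfp941 and Zfp965 to 25 for Zfp667 and 24 for Zfp775. The 6 higher promoters spread over nearly that whole range, from the 6 of Zfp764 upwards. Over all genes, those called higher had a median of 14, those called lower 16 and those called neither way 22.

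**Figure D4:**
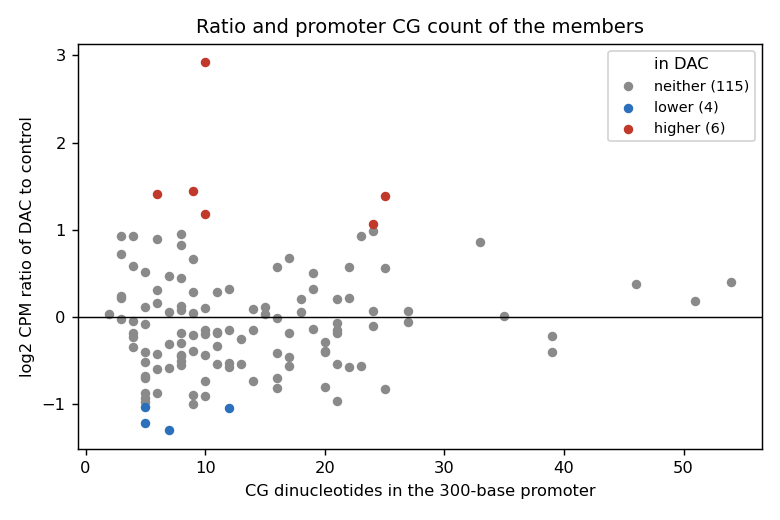
Log2 DAC to control CPM ratio (y axis) against the number of CG dinucleotides in the 300-base RefSeq promoter (x axis) for the 125 measured numbered genes with a promoter in the table, in red for higher, blue for lower and gray for neither. The 6 red points lie from 6 to 25 CGs and the 4 blue points from 5 to 12, within the spread of the gray points.

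The numbered genes were set beside other zinc finger genes and beside the cofactors of KRAB proteins. Of 272 zinc finger genes with other numbers or family names, 241 were measured, 17 were higher and 8 lower (10.4%), with a median log2 ratio of -0.06, which lies between the 7.59% of the numbered genes and the 16.1% of all genes. Zfp568, a KRAB repressor of a placental Igf2 transcript whose number falls outside the range, had 2195 and 2826 counts, 1.10 (1.04 to 1.17). Of 39 cofactors and enzymes of DNA and H3K9 methylation, 38 were measured and 0 were called, beside 16.1% of all genes, with a median of -0.03. Trim28, the corepressor that KRAB boxes bind, had 5741 and 11320 counts, 1.68 (1.63 to 1.73). Setdb1 had 4027 and 5190 counts, 1.10 (1.05 to 1.14), and Dnmt1, the maintenance methyltransferase that DAC traps, had 7385 and 8614, 0.994 (0.964 to 1.03). The highest ratio of the list was that of Dnmt3b, just under the rule, with 47 and 107 counts, 1.94 (1.36 to 2.80). It shares 11.5% of its 50-base stretches with other genes, chiefly Dnmt3c. Dnmt3a had 830 and 1025 counts, 1.05 (0.959 to 1.15). With library totals 1 gene of this list, Dnmt3b, was called.

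Markers of blood and endothelial cells were low. Leukocyte, endothelial and erythroid markers summed to between 0.125 and 1.06 CPM in the control library and between 0.186 and 0.985 CPM in the DAC library. Only 2 of 6 leukocyte and 2 of 3 erythroid markers were among the genes counted, and 4 of 4 endothelial markers. Markers of colon epithelium summed to 75.3 and 257 CPM, with 3 of the 4 measured genes of a list of 9 called higher and 2 of the 7 in the tables at 0 in the control. In the control the E-cadherin gene Cdh1 and Vil1 had 0 counts, Cdx2 had 4, and the keratin genes Krt8 and Krt19 had 5 and 12, while the keratin genes Krt18 and Krt20 had 1797 and 593. Krt8 held 118 CPM of the epithelial sum after DAC, from 0.156 CPM in the control. Mesenchymal markers summed to 8404 and 3692 CPM, with 1 of 6 called lower, and fibroblast markers to 1748 and 1073 CPM, with 0 of 4 called. Single genes had the largest part of both sums, Fn1 with 6577 and 1742 CPM and Col1a2 with 1651 and 973 CPM. The median log2 ratio was -0.04 over the mesenchymal list and 0.30 over the fibroblast list. The part of these differences in the values of the numbered genes was not tested. Counts of 0 were less frequent after DAC, at 1570 genes against 3506. Exons of other annotated genes overlapped those of 46 of the numbered genes, 52 shared 10% or more of their 50-base stretches with other genes and 5 shared all of them.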

How the data were processed

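RNA-seq of CT26 cells was analysed in 1 DAC and 1 control library. The authors deposited whole-number counts per Ensembl gene without normalization, 24223 genes in each table. In the submitters' processing notes STAR 2.5.3a and StringTie 1.3.1c are listed with build mm10, beside Trim Galore, FastQC, Cufflinks and DESeq, whereas the paper's methods name poly-A selection, CASAVA, TopHat and Bowtie. The sources used here do not say which of these made the counts. Symbols and positions came from GENCODE M21 (GRCm38, equal to mm10), which held 24122 of the identifiers and lacked 101.

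TMM factors were computed with edgeR 4.0.16 in R 4.3.3 (1.07 for DAC, 0.936 for control). Ratios of CPM and exact (Clopper-Pearson) 95% counting intervals were computed in Python 3.11.15 with scipy 1.17.1 and pandas 2.3.3. A count of 0 was taken as 3 counts, which equal 0.0937 CPM in the control and 0.0798 CPM in the DAC library. PCR copies are not independent molecules, so intervals would then be too narrow. Genes with exactly 3 counts numbered 1240 and 1176 and those with 4 numbered 650 and 596, a break in which a count need not be 1 fragment. KRAB boxes and C2H2 fingers were found by pattern in proteins translated from GENCODE coding sequences, in place of RefSeq proteins, which were not used here. Shared sequence is the percent of 50-base stretches of the longest transcript that occur in transcripts of other genes. GC centring subtracted the median log2 ratio in 20 bins of transcript GC. The script was tested on simulated data.

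The members and the gene lists were chosen with earlier results of these data known. Named genes were the called members, the 5 with the highest mean CPM, 15 chosen for known roles, Trim28, Setdb1, Dnmt1 and up to 3 called genes in each cluster span, of which some are described. Genes near the thresholds, in the clusters, under the CPM minimum, beside Zfp940 or within Zfp608 were named after their values were seen. Zfp708 was not analysed here. Scaling was varied to library totals, upper-quartile factors and DESeq2 1.42.0 size factors, and filters, folds, intervals, prior counts, cluster gaps and GC centring were varied too. Further alternatives were, chosen after seeing the data, counts summed by cluster and members without exon overlap. Bisulfite sequencing and tumors were not analysed here.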

Additional observations from a re-analysis of the deposited data

How the results depend on the processing

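With library totals, which shift every log2 ratio up by 0.19, 14 genes were higher and 3 lower, the median log2 ratio turned from -0.15 to 0.045, 11 called genes stood in clusters in place of 7 (in 9 clusters, 2 of which held a pair), and 1 gene of the silencing list was called in place of 0. After GC centring 11 were higher and 2 lower and the median turned to 0.066. A minimum of 5 CPM left 3 genes higher, and 15 of the other zinc finger genes called in place of 25. A 4-fold rule left 1 higher (Zfp940) and 0 lower, 0 called genes in clusters, 1 KRAB gene in place of 9, and 6 other zinc finger genes. With the interval wholly beyond 2-fold, 3 were higher and 2 lower, with 2 of these in clusters and 4 KRAB genes. Of all genes measured, 17.3% were called with library totals, against 11.8% of the numbered genes, and 14.7% against 8.97% after GC centring. These shares were 10.5% and 6.84% at 5 CPM, 5.10% and 0.690% at 4-fold, and 10.2% and 3.45% with the interval beyond 2-fold. Without genes whose exons overlap another gene 3 were lower, and a cluster gap of 0.25 Mb left 4 called genes in clusters. For the fewer calls under stricter thresholds the cause is the threshold itself. The cause of the shift by scaling and by GC was not tested.

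Of 140 values for 28 named genes under the other settings, 129 kept their direction and side of the rule, 7 kept their direction but fell short of it, and 4 changed sign without a call on either side. The sign changed for Zfp644 (log2 ratio of 0.045 with library totals and 0.22 after GC centring), Zfp830 (0.089 with library totals) and Zfp687 (-0.065 after GC centring). Those that fell short were Zfp871 and Zfp965 with library totals, Zfp667 with intervals from counts divided by 3, and Zfp775, Zfp945, Zfp871 and Zfp965 after GC centring. DESeq2 size factors, upper-quartile factors, no filter on low values, prior counts, a cluster gap of 3 Mb and members sharing under 10% of sequence gave counts within 1.5 times those reported and a median of the same sign. No paired analysis was possible because each group has 1 library, and for the same reason no library could be left out. Depth limits the genes under 1 CPM, with no more than 17 control or 28 DAC counts each.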
